A study of Mus musculus with 9 samples.

Results

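The Hox cluster genes are described here, taken as all genes whose platform symbol is Hoxa, Hoxb, Hoxc or Hoxd followed by a number. The rule uses names only and no measured value. The mouse has 39 such genes in the RefSeq table, in 13 paralog groups, and 36 of them had a probe set of their own on the array, among 22180 genes tested. These were 9 Hoxa, 10 Hoxb, 9 Hoxc and 8 Hoxd genes. The other 3 were not analysed here. RNA of mouse embryonic stem cells was hybridised to 9 Affymetrix arrays; the cells were of the Nanog-GFP (NG4) reporter line, kept in LIF on gelatin. All groups carried a pLKO.1-based lentivirus and went through puromycin selection (2 μg/mL, 72 h). The control group (shControl) had a control hairpin, and the others had 1 hairpin each, against the SF3b splicing subunit Phf5a (shPhf5a) or against Paf1 (shPaf1), with 3 arrays per group. The line also holds a fluorescent reporter of Nanog in every group, and an effect of a hairpin apart from its target cannot be told apart from that of the knockdown.

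Hox genes encode homeodomain transcription factors that give cells their position along the head-to-tail axis. They lie in 4 clusters, and genes at one end of a cluster (low paralog numbers) act toward the head while genes at the other end (high numbers) act toward the tail, limbs and genitalia. In undifferentiated embryonic stem cells the clusters are known to be kept silent by Polycomb complexes, while trithorax proteins of the MLL (Kmt2) family keep Hox genes active in the embryo. The Paf1 complex, which travels with RNA polymerase II, is known to bind MLL proteins. The clusters also hold microRNA genes, and 1 of them enters the results below.

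The hairpins lowered their targets to between 34.4% and 55.9% of the control mean for Phf5a and between 37.7% and 38.9% for Paf1. Each target also read lower in the other knockdown. Phf5a read 11.84, 12.09 and 11.89 in the control and 11.30, 11.25 and 11.55 in shPaf1. Paf1 read 10.09, 10.11 and 10.05 in the control and 9.70, 10.02 and 9.79 in shPhf5a. The part of this in changes shared by both knockdowns was not tested. Embryonic stem cell markers fitted the label, with 11 of 12 above the median level of all genes in every group. However, 9 of 12 were lower in each knockdown, where 20.7% and 17.8% of all genes were lower in shPhf5a and shPaf1. Among the 11090 genes above the median level, lower genes were more frequent, at 3903 in shPhf5a and 3403 in shPaf1. Of 13 fibroblast markers, a cell type in which Hox genes are active, 1 rose in shPhf5a and 3 rose in shPaf1 (7.69% and 23.1%), and 0 fell. Of all genes 16.7% and 18% rose, and 37.4% and 35.8% changed in either direction. The values are log2 expression values as the authors deposited them, and every test is limma's moderated test over all 22180 genes with an adjusted p threshold of 0.05, which is what "called" means here. Nothing in the labels says that the 3 arrays of a group came from separate cultures, and the p-values then cover only array-to-array spread, which may be technical.

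The microRNA at the posterior end of the Hoxb cluster is shown first, with its relatives in the other clusters, because its signal moved in 1 knockdown beside a Hox gene that moved in both. The RefSeq mature sequences (GRCm38.p6) are written 5′ to 3′, with the seed, bases 2 to 8, in capitals. The 5p arms of the miR-196 genes share 1 seed and those of the miR-10 genes another.
mmu-miR-196a-5p (Mir196a-1, chr11:96265187-96265208, + strand, and Mir196a-2, chr15:102973365-102973386, + strand): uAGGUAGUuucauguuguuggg
mmu-miR-196b-5p (Mir196b, chr6:52230129-52230150, - strand): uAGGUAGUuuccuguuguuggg
mmu-miR-10a-5p (Mir10a, chr11:96317186-96317208, + strand): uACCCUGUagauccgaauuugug
mmu-miR-10b-5p (Mir10b, chr2:74726074-74726096, + strand): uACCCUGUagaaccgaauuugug
Counted from the 5′ end, miR-196b-5p differs from miR-196a-5p by A12C and miR-10b-5p from miR-10a-5p by U12A, both outside the seed.

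Few Hox genes passed the test in either knockdown, and most of those that did were posterior genes that rose. In shPhf5a 3 of the 36 were higher and 2 lower (13.9% called), where 37.4% of all genes tested were called (16.7% higher and 20.7% lower). In shPaf1 7 were higher and 1 lower (22.2%), where 35.8% of all genes were called (18% higher and 17.8% lower), and after centring each array on its median 5 were higher and 3 lower. In the direct comparison 5 were lower in shPhf5a than in shPaf1 and 0 higher (13.9%), against 29% of all genes (12.7% higher and 16.3% lower), and by limma's unadjusted p under 0.05 the number was 10. Median changes over the 36 genes were -0.03 log2 units in shPhf5a and 0.03 in shPaf1 (-0.03 after centring), against -0.03 and -0.01 over all genes.

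Most Hox genes gave weak signals. Of the 36, 32 had a mean level at or below the median of all genes (6.70 log2 units), and the 36 lay between percentiles 9.19 and 60.1 of all genes. Calls were rarer among such dim genes, at 12.8%, 11.6% and 9.89% in shPhf5a, shPaf1 and the direct comparison. All genes above the median were called in 62.1%, 59.9% and 48.1%. The 4 Hox genes above it were Hoxb9, Hoxc12, Hoxc13 and Hoxd8, but the mean is over all 9 arrays, and Hoxb9 and Hoxc12 passed only through the knockdown arrays (control means 6.52 and 6.67), so that no count of calls is read from this split. Probe sets differ in affinity, and no level of one Hox gene is set against that of another.

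**Figure D1:**
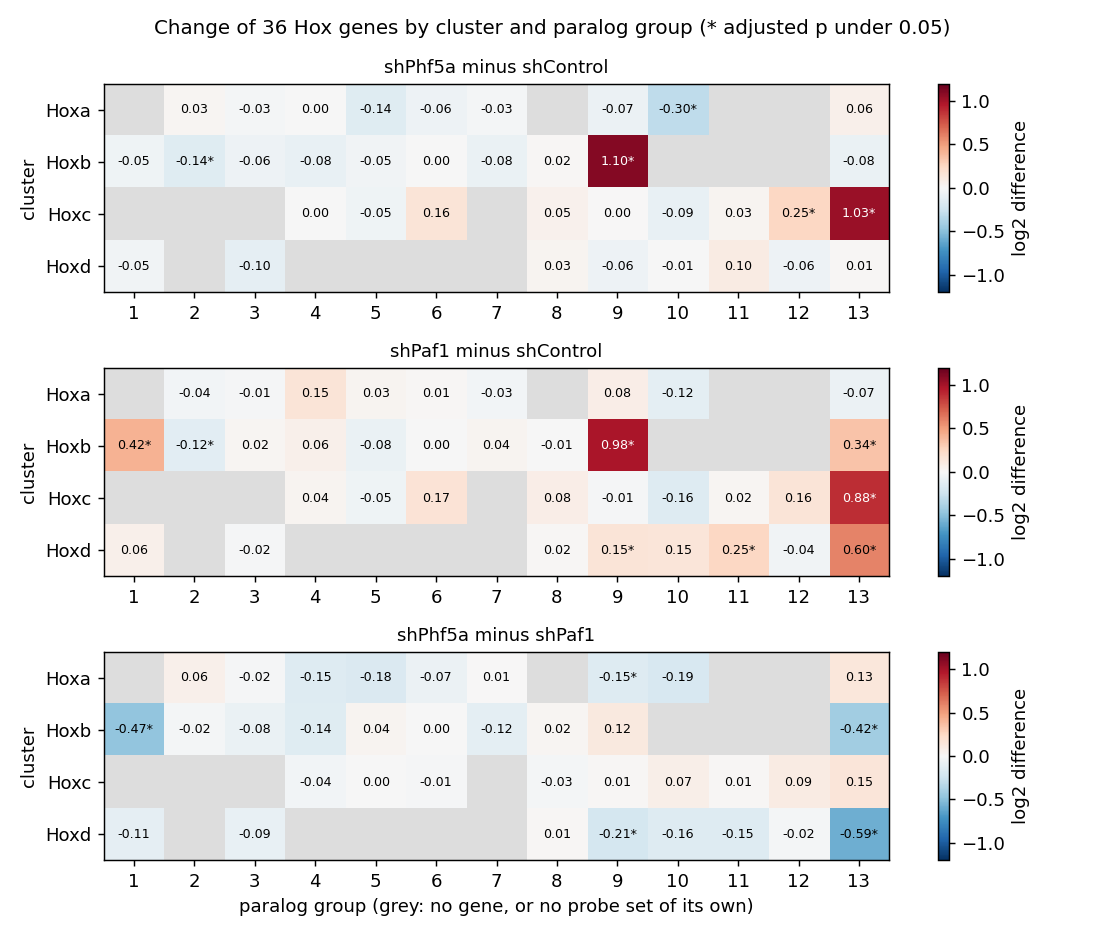
Log2 differences of 36 Hox genes, laid out with clusters as rows and paralog groups 1 to 13 as columns, for each knockdown minus shControl and for shPhf5a minus shPaf1; colour and printed number give the difference and an asterisk marks adjusted p under 0.05. The deepest colour sits at Hoxb9 and Hoxc13 in both knockdowns, and Hoxb1, Hoxb13 and Hoxd13 are coloured in shPaf1 but near 0 in shPhf5a.

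Hoxb9, a posterior gene that patterns the rib-bearing part of the trunk, had the largest change of any Hox gene in both knockdowns. Its control arrays read 6.72, 6.44 and 6.41, its shPhf5a arrays 7.64, 7.73 and 7.50, and its shPaf1 arrays 7.49, 7.62 and 7.41. All 6 knockdown arrays lay above all 3 control arrays, and the arrays of the knockdowns overlapped each other. Hoxb9 rose by 1.10 in shPhf5a (SE 0.10, 2.14-fold, limma adjusted p = 2.64e-05, n = 3 arrays per group) and by 0.98 in shPaf1 (SE 0.10, 1.97-fold, adjusted p = 3.52e-05). The difference between the knockdowns was 0.12 (95% interval -0.09 to 0.33, adjusted p = 0.431).

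Hoxc13, known for its role in hair and nail, was the other Hox gene that rose in both knockdowns. The control arrays read 6.66, 6.84 and 6.80, the shPhf5a arrays 7.93, 7.77 and 7.70, and the shPaf1 arrays 7.61, 7.75 and 7.60. Again every knockdown array was above every control array. The rise was 1.03 in shPhf5a (SE 0.08, 2.05-fold, limma adjusted p = 1.04e-05) and 0.88 in shPaf1 (SE 0.08, 1.85-fold, adjusted p = 1.62e-05). The difference between the knockdowns was 0.15 (95% interval -0.02 to 0.32, adjusted p = 0.19). Both comparisons use the same control arrays, so that the rises of Hoxb9 and Hoxc13 in the 2 knockdowns are not independent of each other.

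Neighbours of Hoxb9 and Hoxc13 were not all called. In the Hoxb cluster Hoxb8, the next gene toward the anterior end, was at 0.02 in shPhf5a and -0.01 in shPaf1, and Hoxb13, the next toward the posterior end, was at -0.08 and 0.34. In the Hoxc cluster Hoxc12, next to Hoxc13, was at 0.25 and 0.16, and Hoxc11, beyond it, at 0.03 and 0.02. Hotair, a long noncoding RNA gene between Hoxc12 and Hoxc11 that was looked up after the values of its neighbours were seen, was at 0.06 and -0.09 and was not called.

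Between Hoxb13 and Hoxb9 lies Mir196a-1, whose probe set reads the primary or precursor transcript rather than the mature microRNA printed above. It read 6.36, 6.80 and 6.78 in the control, 7.63, 7.88 and 8.28 in shPhf5a, and 6.84, 6.65 and 6.90 in shPaf1. The shPhf5a arrays stood above all the others, and the control and shPaf1 arrays overlapped. Mir196a-1 rose by 1.28 in shPhf5a (SE 0.17, 2.43-fold, limma adjusted p = 0.000233), was at 0.15 in shPaf1 (SE 0.17, adjusted p = 0.57), and differed between the knockdowns by 1.13 (SE 0.17, adjusted p = 0.00068). The other measured microRNA genes of the clusters, Mir196a-2 (-0.04 and -0.06 in shPhf5a and shPaf1), Mir10b (-0.01 and -0.03) and Mir615 (0.05 and 0.07), were not called, so that 1 of 4 was called in shPhf5a and 0 of 4 in shPaf1, where 0 of 4 had a limma unadjusted p under 0.05. Mir10a and Mir196b had no probe set of their own.

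**Figure D2:**
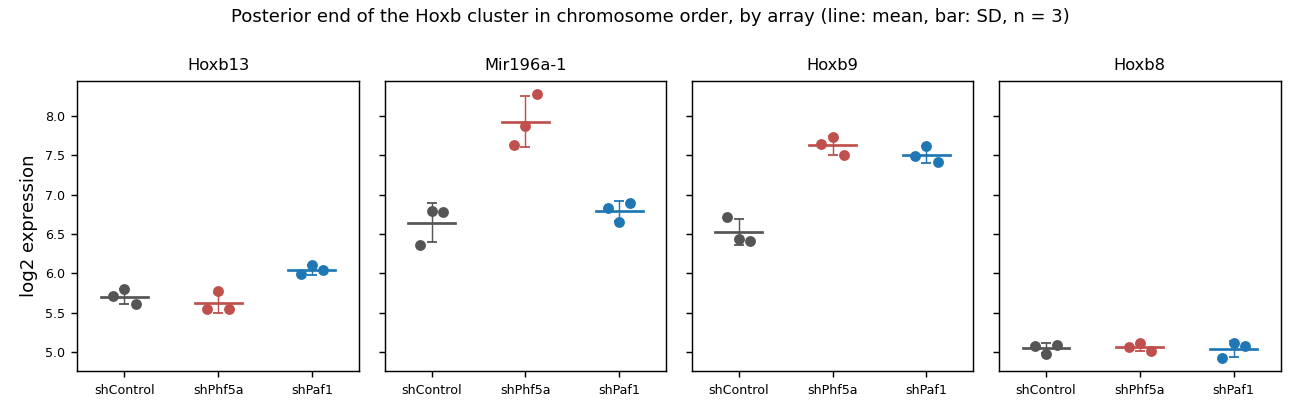
Log2 expression on each array (points), group means (lines) and SD (bars, n = 3) for 4 neighbouring genes of the Hoxb cluster, in their order along the chromosome from the posterior end. Hoxb9 is higher in both knockdowns, Mir196a-1 only in the shPhf5a arrays and Hoxb13 only in the shPaf1 arrays, while Hoxb8 stays near 5.05 in all groups.

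Other posterior genes rose in shPaf1 without rising in shPhf5a. Hoxd13, which patterns digits and genitalia, read 6.69, 6.25 and 6.49 in the control, 6.36, 6.52 and 6.59 in shPhf5a, and 7.11, 7.04 and 7.08 in shPaf1. Its shPaf1 arrays lay above all the others, while the control and shPhf5a arrays overlapped. It rose by 0.60 in shPaf1 (SE 0.10, 1.52-fold, limma adjusted p = 0.0011) and was at 0.01 in shPhf5a (95% interval -0.22 to 0.24), and the direct comparison passed (-0.59, SE 0.10, adjusted p = 0.00182).

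Hoxb13, which acts in the tail and the prostate, was likewise highest in shPaf1. The control arrays read 5.71, 5.80 and 5.61, the shPhf5a arrays 5.54, 5.77 and 5.55, and the shPaf1 arrays 5.99, 6.10 and 6.04. The shPaf1 arrays did not overlap with the others. Hoxb13 rose by 0.34 in shPaf1 (SE 0.08, 1.27-fold, limma adjusted p = 0.00531), was at -0.08 in shPhf5a (95% interval -0.25 to 0.09), and was lower in shPhf5a than in shPaf1 by a change of -0.42 (SE 0.08, adjusted p = 0.00221).

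At the opposite end of the same cluster, Hoxb1, which specifies the fourth rhombomere of the hindbrain, also rose in shPaf1. It read 6.31, 6.06 and 6.34 in the control, 6.26, 6.16 and 6.12 in shPhf5a, and 6.53, 6.84 and 6.60 in shPaf1. The control and shPhf5a arrays overlapped and the shPaf1 arrays were above both. The rise in shPaf1 was 0.42 (SE 0.10, 1.34-fold, limma adjusted p = 0.00614), the value in shPhf5a was -0.05 (95% interval -0.27 to 0.16), and the direct comparison was -0.47 (SE 0.10, adjusted p = 0.00425).

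Genes of the Hoxd cluster between Hoxd8 and Hoxd13 showed smaller shifts in shPaf1. Hoxd9 read 5.11, 5.09 and 5.05 in the control, 5.05, 5.07 and 4.96 in shPhf5a, and 5.20, 5.22 and 5.30 in shPaf1. Its rise of 0.15 in shPaf1 (SE 0.05, 1.11-fold, limma adjusted p = 0.0373) lost its call after centring of the arrays and without shControl replicate 1, 2 or 3 or shPaf1 replicate 2 or 3 (adjusted p up to 0.139 over all alternatives). The direct comparison of Hoxd9 (-0.21, SE 0.05, adjusted p = 0.0103) kept its call in every alternative run. Hoxd11, which acts in the forearm and kidney, read 6.38, 6.09 and 6.38 in the control, 6.38 on all 3 shPhf5a arrays, and 6.63, 6.56 and 6.41 in shPaf1. Its rise of 0.25 in shPaf1 (SE 0.08, 1.19-fold, adjusted p = 0.046) lost the call in 12 of 17 alternatives, among them without shControl replicate 2, any 1 shPhf5a array, or shPaf1 replicate 1 or 2 (adjusted p up to 0.158). Hoxd10, between them, was at 0.15 (adjusted p = 0.0877), and Hoxd12, next to Hoxd13, was at -0.04 (adjusted p = 0.618).

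Few Hox genes fell, and by little. Hoxa10, known for its role in the lumbar spine and the uterus, read 6.22, 6.09 and 5.99 in the control, 5.80, 5.85 and 5.75 in shPhf5a, and 6.05, 5.95 and 5.95 in shPaf1. Its shPhf5a arrays lay below all the others. It fell by 0.30 in shPhf5a (SE 0.06, 1.23-fold, limma adjusted p = 0.00377) and was at -0.12 in shPaf1 (SE 0.06, adjusted p = 0.207), and the direct comparison did not pass (-0.19, adjusted p = 0.0518) but did so without shControl replicate 1 or 3 or shPhf5a replicate 2 and in 3 other alternatives (lowest adjusted p = 0.0257). Centring of the arrays made the shPaf1 value of Hoxa10 a call (-0.18, adjusted p = 0.0468).

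Hoxb2, a hindbrain gene, was the only Hox gene lower in both knockdowns. It read 6.08, 6.09 and 6.05 in the control, 5.95, 5.95 and 5.88 in shPhf5a, and 5.95 on all 3 shPaf1 arrays. The same value to every deposited digit (5.9484034) stood on 2 shPhf5a arrays and all 3 shPaf1 arrays, so that the 2 falls rest largely on 1 repeated value. The changes were -0.14 in shPhf5a (SE 0.04, 1.10-fold, limma adjusted p = 0.023) and -0.12 in shPaf1 (SE 0.04, 1.09-fold, adjusted p = 0.0482). The first lost its call with only the 6 arrays compared and without shControl replicate 1 or 2 or shPhf5a replicate 3 (adjusted p up to 0.0769 over all alternatives), and the second without any 1 of the control or shPaf1 arrays (up to 0.126). A second probe set that the annotation gives to Hoxb3 and Hoxb2 together was at 0.06 and 0.11 and was not called.

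The remaining calls were Hoxc12 and Hoxa9. Hoxc12 read 6.58, 6.80 and 6.63 in the control, 6.90, 7.04 and 6.82 in shPhf5a, and 6.82, 6.83 and 6.83 in shPaf1. Its rise of 0.25 in shPhf5a (SE 0.07, 1.19-fold, limma adjusted p = 0.0193) lost its call in 5 of 18 alternatives, each run alone (adjusted p up to 0.0773). These were quantile normalization, only the 6 arrays compared, and leaving out shControl replicate 1, shControl replicate 3 or shPhf5a replicate 2. In shPaf1 the value of 0.16 (adjusted p = 0.126) became a call without shControl replicate 2 (adjusted p = 0.0416). Hoxa9, a gene of blood stem cells and leukaemia, read 5.64 on all 3 control arrays, 5.59, 5.53 and 5.58 in shPhf5a, and 5.70, 5.68 and 5.78 in shPaf1. It passed only in the direct comparison (-0.15, SE 0.05, limma adjusted p = 0.0299). That SE draws on all 9 arrays, among them the 3 identical control arrays. The call was lost with only the 6 arrays compared, after centring and with the replicate block. It was also lost without shPhf5a replicate 2 or 3 or shPaf1 replicate 1 or 3 (adjusted p up to 0.108 over all alternatives).

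**Figure D3:**
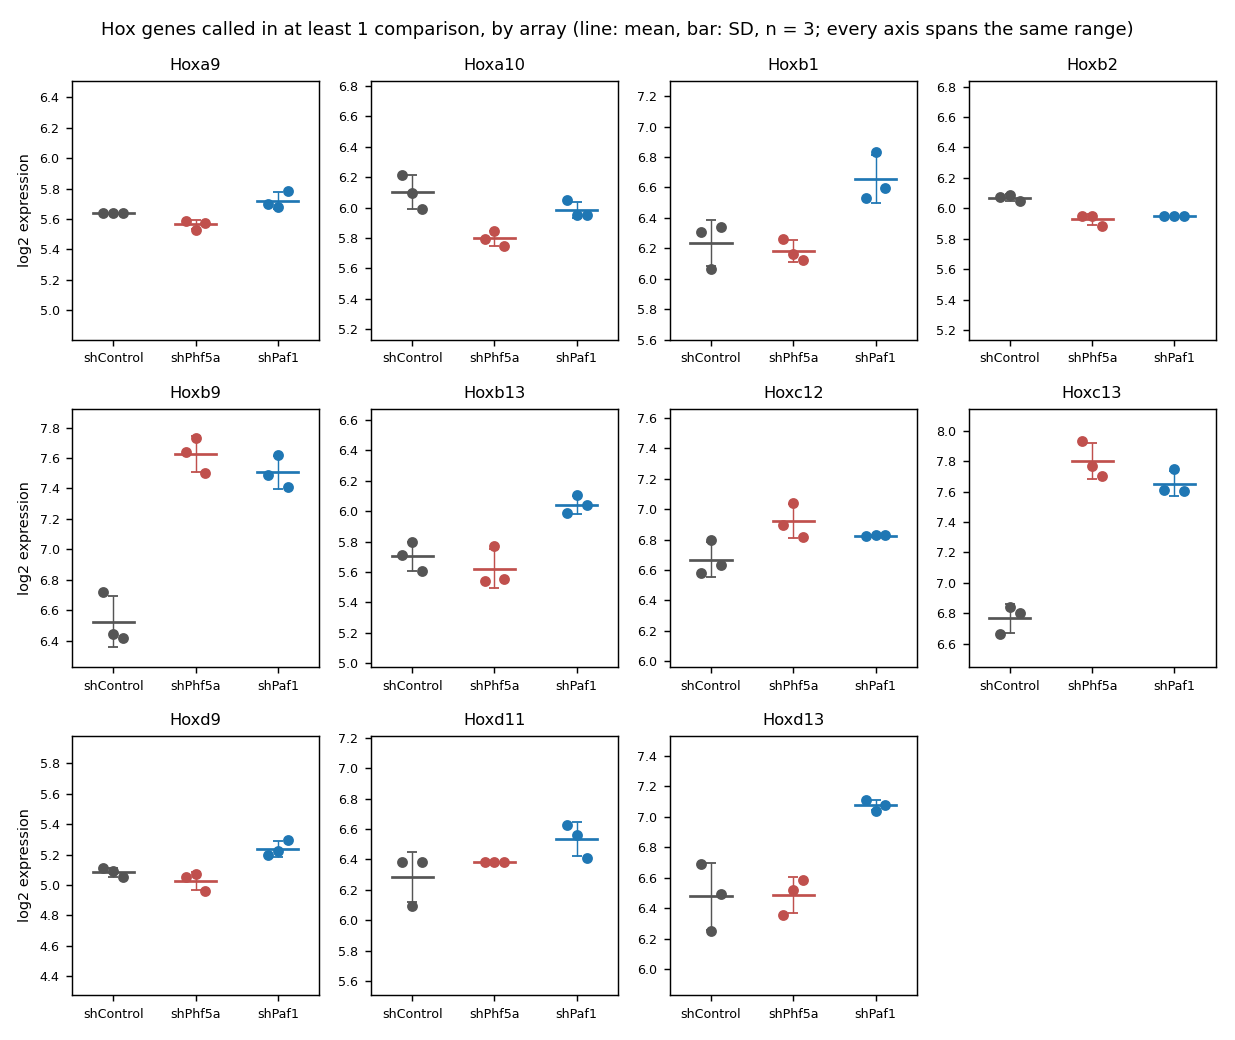
Log2 expression on each of 9 arrays (points) with group means (lines) and SD (bars, n = 3) for the 11 Hox genes called in at least 1 comparison; every panel spans the same range of log2 units. The knockdown arrays of Hoxb9 and Hoxc13 stand about 1 log2 unit above the control arrays, and the shPaf1 arrays of Hoxb1, Hoxb13 and Hoxd13 stand above the arrays of both other groups.

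Identical values recur in this table. In 20 of the 36 Hox genes at least 2 arrays shared 1 value to every deposited digit (55.6%), against 37.8% of all genes and 54.0% of genes below the median level. In 4 Hox genes all 3 arrays of a group were identical, namely Hoxa3 and Hoxb2 in shPaf1, Hoxa9 in shControl and Hoxd11 in shPhf5a (11.1%, against 2.80% of all genes and 4.16% of genes below the median level). Such a group has an SD of 0.

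The other 25 Hox genes passed in none of the 3 comparisons. They were Hoxa2, Hoxa3, Hoxa4, Hoxa5, Hoxa6, Hoxa7 and Hoxa13, then Hoxb3, Hoxb4, Hoxb5, Hoxb6, Hoxb7 and Hoxb8, then Hoxc4, Hoxc5, Hoxc6, Hoxc8, Hoxc9, Hoxc10 and Hoxc11, and Hoxd1, Hoxd3, Hoxd8, Hoxd10 and Hoxd12. No uncalled difference was larger than 0.16 in shPhf5a or 0.17 in shPaf1 in size, both in Hoxc6. The 95% intervals of the 36 genes extended 0.14 to either side at the median, from 0.10 to 0.23. The intervals of uncalled genes reached as far as 0.37 in shPhf5a and 0.38 in shPaf1, both in Hoxc6, so that changes of that size are not excluded there. Hoxa4, a gene of the neck region, was nearest to a call in shPaf1, at 0.15 with control arrays at 6.13, 6.23 and 6.30 and shPaf1 arrays at 6.33, 6.45 and 6.35 (limma adjusted p = 0.071). Hoxa5, which acts in the lung and neck, was nearest in shPhf5a at -0.14 (adjusted p = 0.197).

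**Figure D4:**
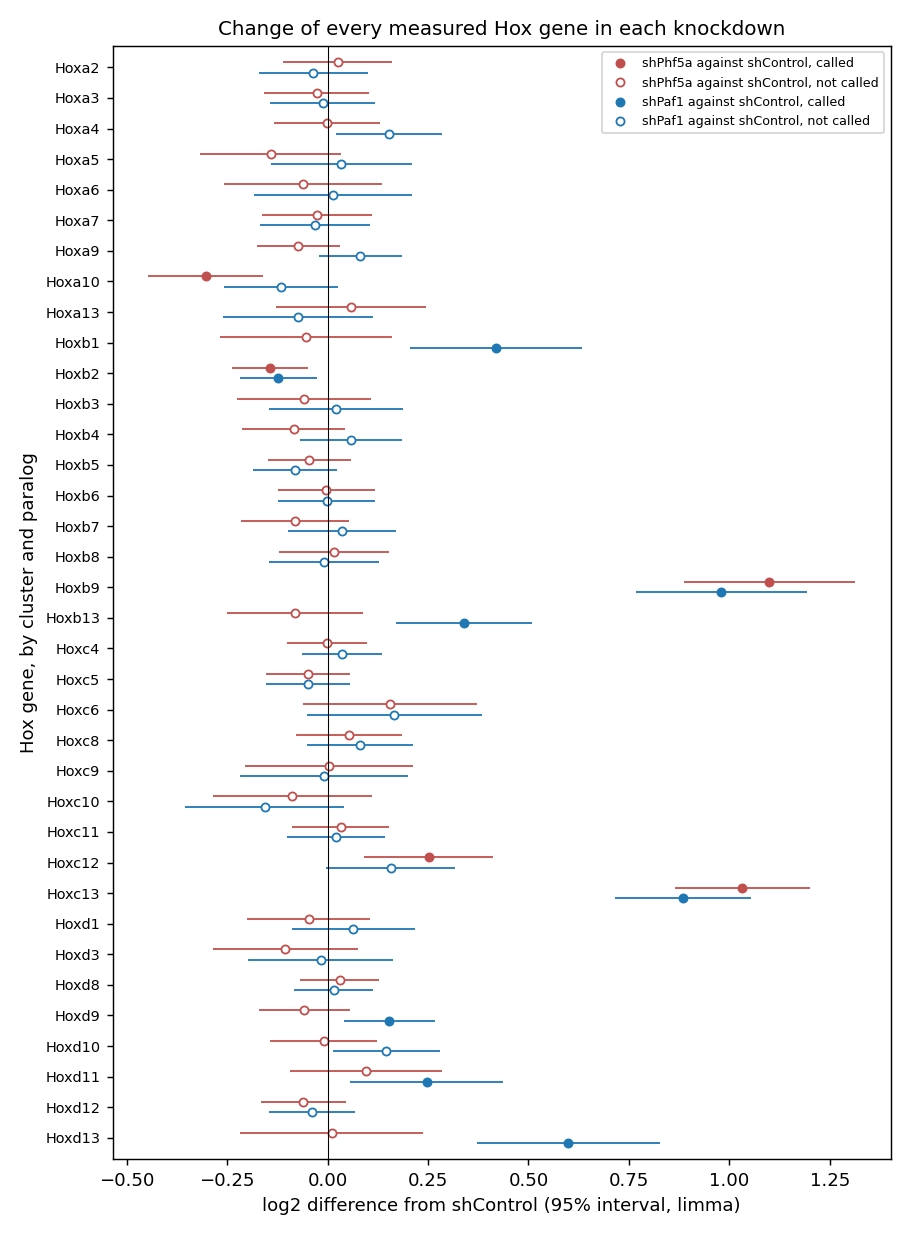
Log2 difference from shControl with its 95% interval for each of the 36 Hox genes, in shPhf5a (red) and shPaf1 (blue), with filled points for called genes and open points for the rest. Hoxb9 and Hoxc13 lie near 1 in both knockdowns, and most other intervals cross 0.

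By cluster, the counts were small, and differences between clusters were not tested. In shPhf5a 1 of 9 Hoxa genes, 2 of 10 Hoxb, 2 of 9 Hoxc and 0 of 8 Hoxd genes were called, with medians of -0.03, -0.06, 0.03 and -0.03 (at most 22.2% of a cluster, against 37.4% of all genes). In shPaf1 the counts were 0 of 9, 4 of 10, 1 of 9 and 3 of 8, with medians of -0.01, 0.03, 0.04 and 0.11 (-0.07, -0.03, -0.02 and 0.05 after centring of the arrays). The highest shares in shPaf1, 40% of Hoxb and 37.5% of Hoxd, were near the 35.8% of all genes. However, all genes of these 2 clusters but Hoxb9 and Hoxd8 lay at or below the median level. At that level 12.8% of all genes were called in shPhf5a and 11.6% in shPaf1, but Hoxb9, above it, is among the Hoxb genes called in both. Of the Hoxd genes 6 of 8 had a positive difference in shPaf1 and 3 of 8 in shPhf5a. The direct comparison called 1 Hoxa, 2 Hoxb, 0 Hoxc and 2 Hoxd genes, all lower in shPhf5a. By limma's unadjusted p under 0.05 the counts of 0 became 0 for Hoxd in shPhf5a, 1 for Hoxa in shPaf1 and 0 for Hoxc in the direct comparison.

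By position along the clusters, most calls fell on posterior genes, and differences between positions were not tested. Their shares were no higher than or near those of all genes. However, all posterior genes but Hoxb9, Hoxc12 and Hoxc13 lay at or below the median level, where 12.8% and 11.6% of all genes were called in shPhf5a and shPaf1. Those 3 genes were the ones that rose in shPhf5a, and Hoxb9 and Hoxc13 also rose in shPaf1. The posterior counts thus mix both levels, so that the share of dim genes is no measure for them. Of 15 posterior genes (paralog groups 9 to 13) 4 were called in shPhf5a, with 3 higher and 1 lower (26.7%, against 37.4% of all genes), and 6 in shPaf1 (40%, against 35.8%), all higher (4 higher and 1 lower after centring). Of 10 anterior genes (groups 1 to 4) 1 was called in shPhf5a and 2 in shPaf1. Of 11 central genes (groups 5 to 8) 0 were called in any comparison by limma (1 lower in shPaf1 after centring), with differences between -0.14 and 0.16 in shPhf5a and between -0.08 and 0.17 in shPaf1. At an unadjusted p under 0.05 there were 0 central genes in each knockdown and 1 in the direct comparison. Posterior median changes were 0.0037 and 0.15 in shPhf5a and shPaf1, anterior ones -0.05 and 0.03, and central ones -0.03 and 0.01. After centring the posterior median was -0.03 in shPhf5a and 0.09 in shPaf1. Across the 36 genes Spearman's rho between paralog number and change was 0.33 in shPhf5a and 0.23 in shPaf1, and 0.27 and 0.15 without Hoxb9 and Hoxc13. Genes of a cluster share arrays and neighbourhood, so that these coefficients are a description.

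Within paralog groups, some members passed and others did not, and the difference between members was not tested. In group 13 Hoxb13, Hoxc13 and Hoxd13 rose in shPaf1, while Hoxa13, which acts with Hoxd13 in the hand and foot, was at -0.07 (95% interval -0.26 to 0.11). In group 9 Hoxb9 and Hoxd9 rose in shPaf1, and Hoxa9 and Hoxc9 were at 0.08 and -0.01. In group 1 Hoxb1 rose in shPaf1 and Hoxd1 was at 0.06 (adjusted p = 0.547).

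Promoter sequence was compared next. RefSeq (GRCm38.p6) promoters of 300 bases, from 250 before the start site to 50 after, were found for 20 of the 36 genes, 2 of them with a pair of promoters. CpG dinucleotides, which mark the stretches that Polycomb and MLL proteins are known to occupy, numbered 17 at the median in the 22 Hox promoters (range 4 to 45), against 7 in all 32851 promoters, and GC content was 58.7% against 52.7%. Of the 11 called genes 6 had a promoter in the table, and Hoxb2, Hoxb9, Hoxb13, Hoxc12 and Hoxc13 did not. The 8 promoters of those 6 genes had a median of 16 CpG and the 14 of uncalled genes 17. Promoters of Hoxd13, Hoxd9 and Hoxb1, which rose in shPaf1, are printed with that of Hoxd12, the neighbour of Hoxd13 that was not called, with each CpG in capitals, to show how far genes that rose together differ in this respect.
Hoxd13 (chr2:74667975-74668274, + strand, 37 CpG): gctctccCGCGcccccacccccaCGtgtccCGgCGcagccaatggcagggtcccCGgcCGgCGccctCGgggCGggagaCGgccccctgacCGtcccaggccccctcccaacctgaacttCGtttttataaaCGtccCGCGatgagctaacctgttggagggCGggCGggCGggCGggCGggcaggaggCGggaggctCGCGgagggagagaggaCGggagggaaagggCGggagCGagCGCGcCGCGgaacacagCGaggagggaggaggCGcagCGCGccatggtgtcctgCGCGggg
Hoxd12 (chr2:74674763-74675062, + strand, 13 CpG): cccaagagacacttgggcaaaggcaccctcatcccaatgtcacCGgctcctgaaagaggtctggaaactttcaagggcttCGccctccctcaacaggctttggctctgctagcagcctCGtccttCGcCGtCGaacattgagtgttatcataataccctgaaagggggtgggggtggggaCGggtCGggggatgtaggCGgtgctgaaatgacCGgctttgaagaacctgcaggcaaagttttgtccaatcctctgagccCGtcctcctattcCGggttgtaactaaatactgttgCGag
Hoxd9 (chr2:74697513-74697812, + strand, 20 CpG): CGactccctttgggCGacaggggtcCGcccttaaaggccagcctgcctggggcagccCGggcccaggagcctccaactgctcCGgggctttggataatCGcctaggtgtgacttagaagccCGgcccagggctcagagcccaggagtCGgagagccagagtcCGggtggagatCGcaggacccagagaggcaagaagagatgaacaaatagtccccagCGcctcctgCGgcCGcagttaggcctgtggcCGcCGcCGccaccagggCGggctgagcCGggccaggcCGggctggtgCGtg
Hoxb1 (chr11:96365508-96365807, + strand, 10 CpG): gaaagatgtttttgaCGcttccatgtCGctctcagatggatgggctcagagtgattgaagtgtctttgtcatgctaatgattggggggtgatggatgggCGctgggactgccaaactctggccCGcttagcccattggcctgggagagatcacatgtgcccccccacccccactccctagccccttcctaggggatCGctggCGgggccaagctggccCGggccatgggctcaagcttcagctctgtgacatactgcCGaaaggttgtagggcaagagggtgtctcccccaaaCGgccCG
The motif TATAAA was searched on both strands and found in 3 of 22 Hox promoters (13.6%) and in 13.6% of all promoters. Hoxd13 had it on both strands, 124 and 126 bases before the start site, which are overlapping matches. TGATNNAT, a form bound by Pbx and Hox proteins together, was found in 4 of 22 Hox promoters (18.2%) and in 8.85% of all promoters. The Hoxb1 promoter held it as TGATGGAT 162 bases before the start site. CCAAT was found in 14 of 22 Hox promoters (63.6%) and in 37.4% of all. TTTATG, a form bound by Cdx proteins, was found in 4 of 22 (18.2%) and in 11.9%. These counts are small, some genes give a pair of promoters, and the differences were not tested.

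Known partners and regulators of Hox genes were measured on the same arrays. In the control 17 of 17 trithorax and MLL genes and 25 of 27 Polycomb genes lay above the median level of all genes, where calls are more frequent. Of 8 TALE cofactors, the homeodomain partners with which Hox proteins bind DNA, 2 rose and 2 fell in each knockdown (50%, against 37.4% and 35.8% of all genes in shPhf5a and shPaf1). In the control 6 of the 8 lay above the median level, where 62.1% and 59.9% of all genes were called. Meis2 rose by 0.48 in shPhf5a (SE 0.05, limma adjusted p = 0.000107) and by 1.10 in shPaf1 (SE 0.05, adjusted p = 1e-06), and Pbx3 fell by 0.67 (SE 0.10) and 0.43 (SE 0.10). Pknox2 rose by 0.56 and 0.36, Pbx2 fell by 0.33 in shPhf5a and Pbx4 fell by 0.37 in shPaf1.

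Signals and factors that switch Hox genes on in the embryo were called in 8 of 15 in shPhf5a (4 higher and 4 lower, 53.3%, against 37.4% of all genes) and in 6 of 15 in shPaf1 (all higher, 40%, against 35.8%). The Wnt ligands Wnt3 and Wnt8a rose by 1.43 (SE 0.13) and 1.04 (SE 0.10) in shPhf5a and by 1.42 (SE 0.13) and 1.12 (SE 0.10) in shPaf1. The retinoid receptor partner Rxra rose by 1.21 in shPhf5a and 0.68 in shPaf1, and Rxrg rose by 0.77 in shPaf1. The retinoic acid receptor gene Rara fell by 0.60 in shPhf5a (SE 0.06, limma adjusted p = 6.09e-05) and rose by 0.24 in shPaf1 (SE 0.06, adjusted p = 0.0111), with a difference between them of -0.84 (SE 0.06, adjusted p = 1.31e-05). Of the Cdx genes, which act directly on Hox clusters, Cdx2 rose by 0.44 in shPhf5a while Cdx1 and Cdx4 fell by 0.31 and 0.28, and none of the 3 was called by limma in shPaf1, where Cdx1 (-0.19) and Cdx2 (0.36) had an unadjusted p under 0.05. The Cdx genes fall outside the rule for named genes and were chosen after their values were seen.

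Retinoic acid enzymes and early targets were called in 4 of 13 in shPhf5a (2 higher and 2 lower, 30.8%, against 37.4% of all genes) and in 7 of 13 in shPaf1 (5 higher and 2 lower, 53.8%, against 35.8%). Rdh10 and Aldh1a2, which make retinoic acid, were at 0.57 (called) and -0.17 (not called) in shPhf5a and rose by 1.04 (SE 0.09, limma adjusted p = 1.45e-05) and 0.60 (SE 0.14, adjusted p = 0.00818) in shPaf1. The binding protein Crabp1 fell by 1.29 in shPhf5a (SE 0.13) and stood at 0.05 in shPaf1. Stra8, a retinoid-induced gene of the germ line, fell by 0.72 and 1.11. Cyp26a1, a retinoid-induced gene that breaks retinoic acid down and was chosen after its values were seen, stood at -0.12 and 0.01 and was not called.

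Among trithorax and MLL genes 8 were higher and 5 lower of 17 in shPhf5a, and 8 higher and 6 lower in shPaf1. These shares of 76.5% and 82.4% stand beside 62.1% and 59.9% of all genes above the median level. Kmt2a, the MLL gene best known for keeping Hox genes on, rose by 0.91 (SE 0.13) and 0.86 (SE 0.13), and Kmt2d by 0.77 (SE 0.10) and 1.35 (SE 0.10). Dot1l, the H3K79 methyltransferase, rose by 0.55 and 1.09, and Kdm6b, which removes the Polycomb mark, by 0.58 and 1.06. The core subunit Dpy30 fell by 0.98 and 0.73. Of 27 Polycomb genes 10 were higher and 8 lower in shPhf5a and 8 higher and 7 lower in shPaf1, shares of 66.7% and 55.6% that are close to those 62.1% and 59.9%. The catalytic subunits Ezh2 and Rnf2, likewise chosen afterwards, were not called. They were at -0.02 and -0.01 in shPhf5a and at -0.06 and -0.09 in shPaf1. Their paralogs Ezh1 and Ring1 did differ. The mean level of Ezh1 was 8.93 in the control, 9.27 in shPhf5a and 9.32 in shPaf1. That of Ring1 was 7.37, 6.94 and 7.07 in the same order. Pcgf5 rose by 1.04 and 0.54 and Phc3 by 0.71 and 0.87, and Pcgf1 fell by 0.44 and 0.74.

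Markers of cells other than stem cells were read beside the Hox rises. Of all genes 37.4% were called in shPhf5a and 35.8% in shPaf1. The shares called were 7.69% and 23.1% of fibroblast markers, 33.3% and 33.3% of neural tube markers, and 37.5% and 25% of trunk mesoderm markers. Of 13 fibroblast markers Dcn rose by 0.57, Vim by 0.57 and Col1a1 by 0.22 in shPaf1, and Vim by 0.37 in shPhf5a. The mean level of the list lay between 6.43 and 6.49 on the control arrays, 6.41 and 6.46 on the shPhf5a arrays and 6.60 and 6.64 on the shPaf1 arrays, while Lum, Col1a2, Prrx1 and Postn were not called in either knockdown. Of 9 neural tube markers 1 was higher and 2 lower in shPhf5a and 2 higher and 1 lower in shPaf1, where Nes rose by 1.61. Of 8 trunk mesoderm markers 1 was higher and 2 lower in shPhf5a and 1 higher and 1 lower in shPaf1, and of 5 definitive endoderm markers 0 were called in either by limma, with 0 at an unadjusted p under 0.05. The part of such cells in the Hox changes was not tested, and in bulk RNA more cells of a kind and more RNA per cell cannot be told apart.

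Over all 36 Hox genes the mean level per array lay between 5.89 and 5.92 in shControl, 5.90 and 5.97 in shPhf5a, and 6.001 and 6.02 in shPaf1. The median of all genes per array lay between 6.65 and 6.66, 6.66 and 6.70, and 6.70 and 6.73 in the same order. With only the 6 arrays compared, 3 Hox genes were called in shPhf5a instead of 5. The 8 probe sets outside the rule that name a Hox gene, 7 shared with another symbol and a second one of Hoxb5, were called in no comparison, with the lowest limma adjusted p over all probe sets at 0.203.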

How the data were processed

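The authors deposited 1 table of log2 expression values for 33793 probe sets on 9 arrays. The log2 scale was read from its range of values, and no source used here gives the normalization or software. Total RNA was amplified and labelled by whole-transcript kits, per the labels' protocols. Symbols came from the platform annotation: 23521 probe sets had 1 symbol, 1814 several and 8458 none listed. Each gene was taken from its probe set with the highest mean. Group means were fitted over 22180 genes with limma 3.58.1 in R 4.3.3 (lmFit, eBayes), and p-values were adjusted by Benjamini-Hochberg. The array number (3 per group) limits precision, and no array dates were used. Described with every array were Hox genes called in any comparison, and from each other list up to 4 called genes per comparison by size of change. Members and lists were chosen with earlier results of these data known. The fit was tested on simulated data. Alternatives covered scaling, gene level, probe set choice, variance model, arrays used, a replicate block and leaving out each array. Same-numbered arrays deviated together by correlations of -0.06 to 0.11, so that the number was not taken as a pairing.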

Additional observations from a re-analysis of the deposited data

Results flagged for a closer look

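Some genes differed between the knockdowns in the direct limma comparison of shPhf5a with shPaf1, that is, their changes from the same control arrays were unequal. The differences, shPhf5a minus shPaf1 in log2 units with 3 arrays per group, were -0.59 in Hoxd13, -0.47 in Hoxb1, -0.42 in Hoxb13, -0.21 in Hoxd9 and -0.15 in Hoxa9, all lower in shPhf5a. Mir196a-1, between Hoxb13 and Hoxb9, differed the other way, by 1.13. These 6 genes were chosen by their call in this same comparison, in which 29% of all genes were called. In each of them every shPhf5a array lay on 1 side of every shPaf1 array, which follows largely from that choice and adds no support.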

How the results depend on the processing

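The number of Hox genes called was 3 instead of 5 in shPhf5a with only the 6 arrays compared. With only genes above the median level tested, which keeps 4 Hox genes, it was 3 in shPhf5a, 2 in shPaf1 and 0 in the direct comparison (0 at a limma unadjusted p under 0.05), and the median changes were 0.64, 0.52 and 0.11. Hoxb9 and Hoxc12 enter that set only through the arrays in which they are higher, so that these values are selected on the change and support nothing. With the replicate block, which the array numbers do not support as a pairing, 5 Hox genes were called in shPaf1 instead of 8. Array centring gave median changes of -0.057 in shPhf5a and -0.031 in shPaf1. Leaving out each array in turn gave 4 to 6 calls in shPhf5a, 6 to 7 in shPaf1 and 4 to 7 in the direct comparison, with medians from -0.04 to -0.02, from 0.014 to 0.047 and from -0.05 to -0.00021. Of 20 called gene results, 14 kept their call in every alternative run, and 6 lost it in some, all of them named above with the arrays. Of 16 not called, 3 passed in some. Uncalled values turned sign in Hoxd13 in shPhf5a (-0.044 after quantile normalization, -0.020 after centring, and between -0.102 and 0.116 without 1 array) and in Hoxb2 in the direct comparison (0.0075 after centring). Most Hox genes lie near the dim end of the array, where a small change could be missed.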

Other observations

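Genes just outside the Hox clusters were read beside them. Of 9 flanking genes 3 were higher and 4 lower in shPhf5a, and 2 higher and 2 lower in shPaf1 (77.8% and 44.4%, against 37.4% and 35.8% of all genes). Hibadh, an enzyme of valine breakdown, fell by 0.63 and 0.89, and Skap2, an adaptor of immune cell signalling, fell by 0.66 and 0.39 (limma adjusted p = 0.00038 and 0.00735). Calcoco1 rose by 0.54 in both (adjusted p = 0.00021 and 0.000192). Of these 9 genes 6 lay above the median level of all genes in every group.

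The ParaHox genes, the sister group of the Hox clusters, were called in 5 of 6 in shPhf5a (Cdx2 higher, and Cdx1, Cdx4, Gsx1 and Gsx2 lower) and in 0 of 6 in shPaf1 by limma, where 2 had an unadjusted p under 0.05 (all genes: 37.4% and 35.8%). In the direct comparison 1 of 6 was called. Gsx1 and Gsx2, which pattern the forebrain, fell by 0.29 each in shPhf5a. Of 7 blood and macrophage markers 0 were higher and 2 lower in shPhf5a, and 2 higher and 1 lower in shPaf1. These shares of 28.6% and 42.9% stand beside 37.4% and 35.8% of all genes. Runx1, a regulator of blood formation, rose by 1.42 in shPaf1 (SE 0.08, limma adjusted p = 2.03e-06). Cd68 fell by 0.42 in shPhf5a and rose by 0.44 in shPaf1. Among trunk mesoderm markers Tcf15 fell by 2.04 and 0.88 and Foxf1 rose by 0.45 and 0.82.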
